A study of Drosophila melanogaster with 18 samples.

Results

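Tub-3L larvae of the fifth generation (G5) without melanotic tumors were compared with UAS-3L larvae of the same generation, a comparison of larvae with and without the driver at a matched generation. The arrays were chosen by their titles and are 4 of the 18 in the series, 2 per group, and all 16322 probe sets were used. Both groups carry FLAG-tagged mammalian DNMT3L in the pUAST vector, behind an hsp70 promoter with GAL4 binding sites (UAS) and with the mini-white marker, and the transgene was injected into w1118 embryos. Tub-3L larvae also carry Tubulin-GAL4 on the third chromosome, are homozygous and were bred by self-crossing in each generation, with the transgene of a single line on the second chromosome. To build Tub-3L, the transgene stock and the driver stock were each crossed to double balancer flies and later combined. UAS-3L larvae carry no driver, and their zygosity and breeding are not described in the study's text. No group of the series carries the driver alone, so genetic background may also differ between the groups. RNA came from pools of larvae of the third instar, at about the same stage, and the labels describe the paired arrays as biological replicates. Whether the pools came from separate crosses is not given, so the p-values measure the spread between pools. No probe set is named for DNMT3L, and expression of the transgene itself was therefore not measured here.

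DNMT3L is a mammalian cofactor of the de novo DNA methyltransferases that has no enzymatic activity of its own and binds histone H3 when lysine 4 is unmethylated. Flies have neither DNMT3L nor its methyltransferase partners. In the GAL4/UAS system the yeast activator GAL4, here made in all tissues, switches on a transgene that otherwise stays silent. The third instar is the last larval stage. Its salivary glands make glue proteins late in the instar. Many organs of the adult grow from imaginal discs and differentiate mostly during metamorphosis. Strong transcripts of flight muscle, male accessory glands and egg chambers therefore mainly mark tissues of the pupa and adult.

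The 2 arrays of a group were close to each other and the groups stood apart. The median absolute difference of the log2 signal between arrays was 0.129 within Tub-3L G5 and 0.139 within UAS-3L G5, against 0.498 to 0.508 between arrays of different groups, and Pearson's r was 0.994 and 0.992 within groups and 0.878 to 0.879 between them. Here a called probe set has an adjusted p-value in limma below 0.05, taken over all probe sets, and a difference of 2-fold or more. By this rule 3720 of 16322 probe sets were called (22.8%), of which 1992 were higher (12.2%) and 1728 lower (10.6%) in Tub-3L G5 than in UAS-3L G5. In each of the 3720, both Tub-3L G5 arrays lay beyond both UAS-3L G5 arrays. Which direction held more calls depended on the normalisation, as given at the end. Without the fold threshold 9352 probe sets passed (57.3%).

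Increases reached much larger sizes than decreases. Among the called probe sets, 645 were at least 4-fold higher and 546 at least 4-fold lower, but 185 were at least 16-fold higher against 22 at least 16-fold lower, and 111 were at least 32-fold higher against 3 at least 32-fold lower. Of the probe sets called higher, 715 (35.9%) had both UAS-3L G5 arrays under the lower quartile of their array, a log2 signal of 4.39, and 212 of these had both Tub-3L G5 arrays above the array median. Of those called lower, 489 (28.3%) had both Tub-3L G5 arrays under the lower quartile of 4.55. The size of a fold is uncertain where the lower signal is so dim. Only 2392 probe sets carry a gene symbol, which cover 2249 genes. Of these genes 531 were called (23.6%), with 342 higher (15.2%) and 189 lower (8.4%), and these shares are the background for the gene lists.

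**Figure D1:**
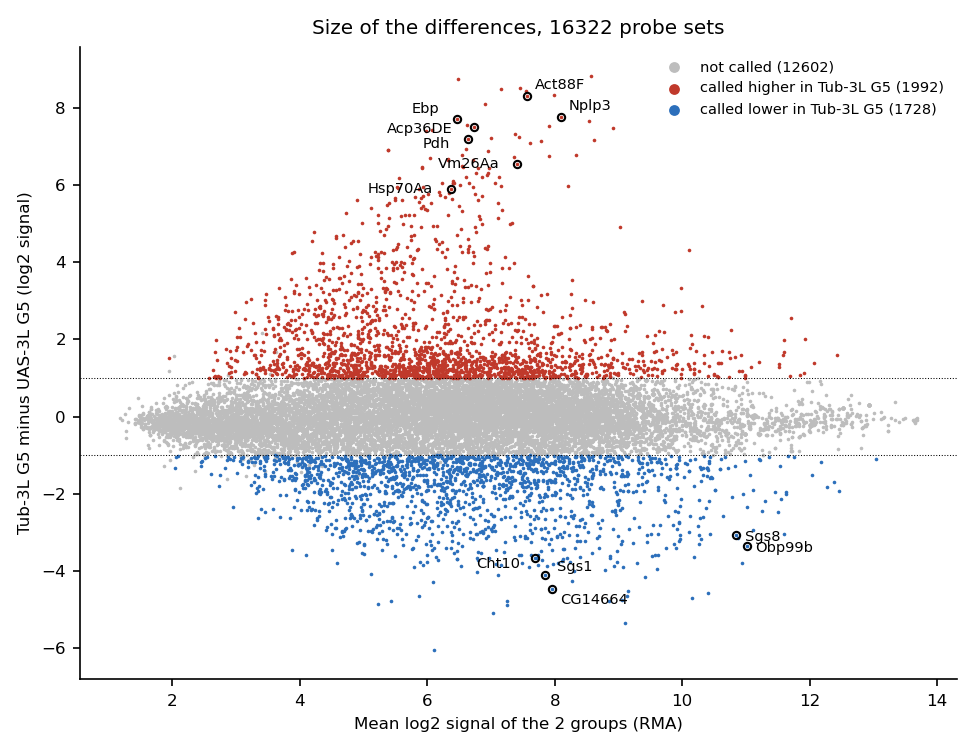
Difference between Tub-3L G5 and UAS-3L G5 in log2 signal (y axis) against the mean log2 signal of the 2 groups (x axis), 1 point per probe set. Dotted lines mark 2-fold, and points are coloured by the call (1992 higher, 1728 lower). Circled genes are examples from the text. The differences extend to 8.32 for Act88F among the named increases and to -4.47 for CG14664 among the named decreases.

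Genes of the male reproductive tract gave some of the largest increases. The accessory gland makes the seminal proteins that males transfer at mating, and all 12 named genes of its list were called higher, with a median log2 difference of 4.87 against 0.07 over all named genes. In 9 of the 12, both UAS-3L G5 arrays were under the lower quartile. Acp36DE, a seminal protein needed for sperm storage, had log2 signals of 10.48 and 10.52 in Tub-3L G5 and of 2.96 and 3.01 in UAS-3L G5. The groups were far apart and the arrays of each nearly coincided. The difference was 7.51 (SE 0.16), which is 183-fold (adjusted p = 1.2e-11). Mst57Db, a small peptide of the gland, had 11.59 and 11.74 in Tub-3L G5 and 4.11 and 4.18 in UAS-3L G5, 184-fold higher (adjusted p = 2.42e-09). Its neighbours in the genome Mst57Da and Mst57Dc were 62.7-fold and 36.4-fold higher, and as their sequences resemble each other some signal may be shared between them. Acp62F, a protease inhibitor of the seminal fluid, was 66.1-fold higher, with 9.48 and 9.42 in Tub-3L G5 and 2.95 and 3.85 in UAS-3L G5.

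The ducts that carry the seminal fluid showed the same direction for their specific products. Ebp, a protein of the ejaculatory bulb, had 10.26 and 10.40 in Tub-3L G5 and 2.64 and 2.60 in UAS-3L G5, 209-fold higher (adjusted p = 2.2e-10). Dup99B, a peptide of the ejaculatory duct, was 18.9-fold higher, at 6.29 and 6.65 in Tub-3L G5 and 2.15 and 2.31 in UAS-3L G5. Gld, glucose dehydrogenase, is also made in ducts but serves in the cuticle as well, and it fell 2.13-fold (7.30 and 7.12 in Tub-3L G5, 8.38 and 8.21 in UAS-3L G5). Of the 4 named genes of the duct and bulb list, 2 were called higher and 1 lower. Serpins, inhibitors of serine proteases, were divided. Of 10 named, 5 were called higher, among them the accessory gland serpin Acp76A (11.0-fold), Spn38F (9.77-fold) and Spn28F, at 5.97 and 6.04 in Tub-3L G5 and 1.74 and 1.78 in UAS-3L G5, and 1 was called lower, Spn43Aa (13.3-fold). scpr-B, a secreted protein with an SCP domain, was 79.9-fold higher, at 10.05 and 10.17 in Tub-3L G5 and 3.80 and 3.78 in UAS-3L G5.

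Products of the ovary rose as well. All 5 named genes of the eggshell and yolk list (chorion, vitelline membrane and yolk proteins) were called higher, with a median of 4.28, and in UAS-3L G5 all 5 were under the lower quartile. Vm26Aa, which follicle cells secrete into the vitelline membrane, had 10.59 and 10.76 in Tub-3L G5 and 3.99 and 4.29 in UAS-3L G5, 92.9-fold higher (adjusted p = 4.67e-11). Vm34Ca, another protein of that layer, was 79.8-fold higher and Vm32E 4.28-fold, and dec, a chorion protein, was 19.4-fold higher (8.11 and 8.61 in Tub-3L G5, 4.26 and 3.91 in UAS-3L G5). As for every probe set called higher, both Tub-3L G5 arrays of these genes lay above both UAS-3L G5 arrays. Among female germline genes 5 of 7 named were called higher and 0 lower, with a median of 2.39. otu, required for oogenesis, had 9.74 and 9.68 in Tub-3L G5 and 3.13 and 3.88 in UAS-3L G5, 73.7-fold higher. The gap junctions of germ cells contain zpg, which was 50.4-fold higher (8.33 and 8.32 in Tub-3L G5, 2.96 and 2.38 in UAS-3L G5). orb, an RNA-binding protein of the oocyte, was already well above background in UAS-3L G5, at 6.44 and 6.58, and averaged 10.04 in Tub-3L G5, 11.6-fold higher (adjusted p = 3.03e-11).

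The piRNA pathway silences transposons in the germline. Its 3 named genes were all called higher: moon, which starts transcription of piRNA clusters, 8.07-fold, del, which marks those clusters, 5.25-fold, and qin, which acts in piRNA amplification, 4.86-fold. del had 8.83 and 8.77 in Tub-3L G5 and 6.48 and 6.34 in UAS-3L G5. It is also on the female germline list and is counted among the genes called higher there, so the 2 lists are not separate. piwi and aub are not named by a probe set here. Of 14 named meiosis genes 3 were called higher and 0 lower, with a median of 0.10, and the 3 were c(2)M (9.23-fold) and c(3)G (3.23-fold), proteins of the synaptonemal complex, and nod (2.73-fold), a kinesin-like motor that holds chromosomes without crossovers. c(2)M had 5.52 and 5.52 in Tub-3L G5 and 2.53 and 2.10 in UAS-3L G5. mei-218, needed for crossovers, differed by 1.62-fold and was under the fold threshold. mamo, a zinc finger protein supplied by the mother that germ cells need for meiosis, was 2.13-fold higher (adjusted p = 5.85e-06). It had 8.79 and 8.81 in Tub-3L G5 and 7.61 and 7.80 in UAS-3L G5. The call ended against UAS-3L G1 (log2 difference 0.63), against both UAS-3L groups (0.86), with median centring (0.97) and without UAS-3L G5 replicate 1 (1.0, just under 2-fold). The study's text counts mamo among downregulated genes, without naming a generation there. In Tub-3L G5 its signal was above that of either UAS-3L group, the opposite direction.

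Testis genes moved by less. Larval testes already hold spermatocytes, and of 20 named spermatogenesis genes 10 were called higher and 0 lower, with a median of 1.04 and a largest fold of 4.65. Mst84Dc and Mst84Da, cysteine-rich proteins of the sperm tail, were 4.65-fold and 3.93-fold higher. Mst84Dc had 10.24 and 10.17 in Tub-3L G5 and 7.95 and 8.03 in UAS-3L G5, a clear signal in both groups. S-Lap7 and S-Lap2, leucyl aminopeptidases of sperm, were 2.41-fold and 2.12-fold higher. The regulators aly and sa, which activate the spermatocyte programme, had log2 differences of -0.57 and -0.33, neither of them called. kl-5, a dynein of the sperm tail encoded on the Y chromosome and singled out after its values were seen, had 4.55 and 4.34 in Tub-3L G5 and 2.63 and 3.45 in UAS-3L G5, dim in both groups (2.64-fold, adjusted p = 0.00618).

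The list of adult flight muscle genes rose, and a short list of other muscle genes did not rise as a set. Of 8 named genes of adult flight muscle 6 were called higher and 0 lower, with a median of 3.38. Act88F, the actin of the indirect flight muscles, gave the largest increase of any named gene. It had 11.63 and 11.82 in Tub-3L G5 and 3.65 and 3.15 in UAS-3L G5, a log2 difference of 8.32 (SE 0.25) or 319-fold (adjusted p = 1.01e-10). Act79B, an actin of other adult muscles, was 142-fold higher, with 11.33 and 11.39 in Tub-3L G5 and 4.84 and 3.59 in UAS-3L G5. As actin genes are nearly identical, the probe sets of Act88F and Act79B could share signal. Scp1, a calcium-binding protein of muscle, was 148-fold higher (10.58 and 10.61 in Tub-3L G5, 3.08 and 3.70 in UAS-3L G5). TpnC41C, a troponin C of adult muscle, was 23.6-fold higher and Mlp60A, a LIM protein of muscle, 4.60-fold. Of 6 on the other muscle list 0 were called higher and 1 lower, with a median of 0.02, and 2 passed the adjusted p in each direction. Prm, paramyosin of the thick filament, had 9.75 and 9.91 in Tub-3L G5 and 9.40 and 9.40 in UAS-3L G5, and Mlc1, a myosin light chain, had 12.27 and 12.32 in Tub-3L G5 and 12.03 and 12.01 in UAS-3L G5. betaTub60D, a tubulin of developing muscle and nerve cells, fell 3.70-fold.

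Genes of vision gave both large increases and clear decreases. Of 21 named photoreceptor genes 14 were called higher and 3 lower, with a median of 1.25. Arr2, the arrestin that switches off activated rhodopsin, had 11.25 and 11.32 in Tub-3L G5 and 4.69 and 4.38 in UAS-3L G5, 108-fold higher (adjusted p = 4.4e-06), with an SE of 0.70 for the log2 difference. Arr1, a second arrestin, and trp, the light-gated channel, were 43.9-fold and 27.4-fold higher, and these 2 were singled out after their values were seen. Ggamma30A, a G protein subunit of the eye, was 5.66-fold higher (8.56 and 8.37 in Tub-3L G5, 5.95 and 5.98 in UAS-3L G5). Pdh, a retinol dehydrogenase of eye pigment cells, was 145-fold higher, at 10.16 and 10.30 in Tub-3L G5 and 2.95 and 3.14 in UAS-3L G5, and its SE of 0.88 came mainly from other groups, since the w1118 arrays were at 2.96 and 7.03. The 3 called lower were santa-maria, pinta and ogre. santa-maria, a receptor for carotenoid uptake, had 7.46 and 7.51 in Tub-3L G5 and 9.78 and 9.58 in UAS-3L G5 (4.58-fold lower), pinta, a retinoid-binding protein, fell 3.15-fold, and ogre, a gap junction protein of the developing optic lobe, fell 2.37-fold.

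Some genes of neurons and their peptides were higher and others lower. Of 17 named neuropeptide and hormone genes 3 were called higher and 1 lower, and 9 did not pass the adjusted p. These shares are near the background of all named genes (15.2% higher and 8.4% lower), so the list as a whole did not stand out. Nplp3, a neuropeptide-like precursor, had 11.97 and 11.99 in Tub-3L G5 and 3.71 and 4.70 in UAS-3L G5, 219-fold higher, with an SE of 0.88 on the log2 scale, to which the w1118 arrays at 5.81 and 9.42 contributed. Nplp4, a precursor of the same kind, went the other way, at 6.37 and 6.35 in Tub-3L G5 and 9.51 and 9.53 in UAS-3L G5 (8.93-fold lower). Nplp2 and sNPF, the precursor of short neuropeptide F, were 3.95-fold and 2.18-fold higher, and neither was called against UAS-3L G1 (log2 differences 0.65 and 0.68). Of 11 named neuronal genes 4 were called higher, among them the GABA synthase Gad1 (3.70-fold) and the GABA receptor Rdl (2.94-fold). The 2 called lower were elav, an RNA-binding protein of all neurons, at 7.49 and 7.37 in Tub-3L G5 and 8.62 and 8.55 in UAS-3L G5 (2.23-fold lower), and Ddc, the dopa decarboxylase that also hardens cuticle (3.14-fold lower).

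Odorant-binding proteins, small secreted carriers that are made in antennae and in many other tissues, moved in both directions. Of 43 named 14 were called higher and 8 lower, with a median of -0.09. Obp56g had 9.70 and 9.86 in Tub-3L G5 and 3.15 and 3.44 in UAS-3L G5 (89.4-fold higher), and Obp56f was 17.5-fold higher. In contrast Obp99b had 9.21 and 9.48 in Tub-3L G5 and 12.67 and 12.71 in UAS-3L G5 (10.1-fold lower, adjusted p = 4.27e-11). Obp57d fell 5.80-fold and Obp56d, which lies in the same cluster as Obp56g, fell 2.92-fold. Of the 165 named chemosensory receptors, which are expressed in few cells, 3 were called higher and 1 lower, a share well under the background. However, 161 had both UAS-3L G5 arrays under the lower quartile and 159 both Tub-3L G5 arrays. At such dim signals the low share says little about these genes.

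**Figure D2:**
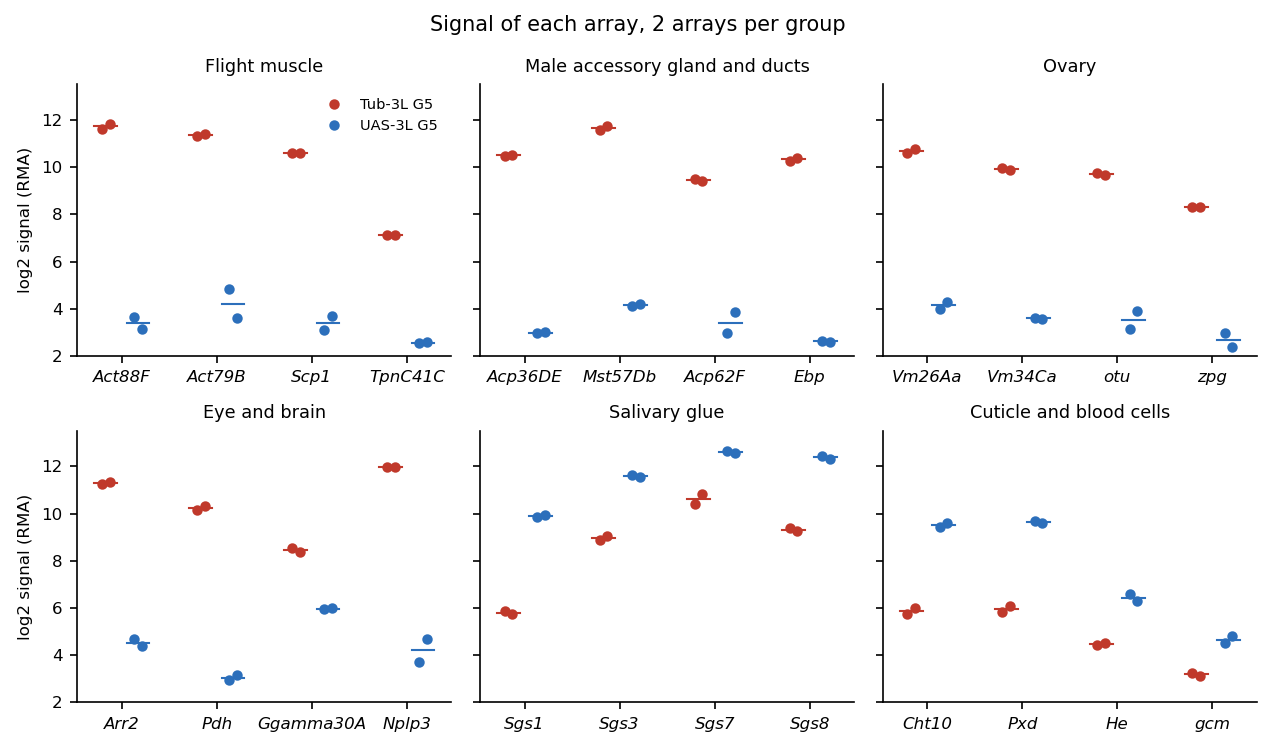
Log2 signal of each array (points) and the mean of its group (bars) for 24 genes, with Tub-3L G5 left of UAS-3L G5. All genes shown were called, and as for every called probe set the groups do not overlap. The genes of flight muscle, the male tract, the ovary and the eye shown here were higher in Tub-3L G5. The glue and blood cell genes shown, the chitinase Cht10 and the peroxidase Pxd were lower.

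Transcripts of adult organs were thus at a strong signal in samples labelled as larvae of the third instar, and the same genes were at a strong signal in the Tub-3L G4 arrays and in the G5 larvae with tumors (Tub-3L G5P). The mean log2 signal of the accessory gland list was 8.12 to 8.15 in the Tub-3L G5 arrays, 7.43 to 7.50 in Tub-3L G4 and 6.73 to 6.74 in Tub-3L G5P, and lay between 3.07 and 3.47 in all arrays of the other 6 groups, UAS-3L G5 included. For the eggshell and yolk list it was 7.69 to 7.99 in Tub-3L G5, 7.09 to 7.23 in Tub-3L G4 and 7.84 to 7.94 in Tub-3L G5P, and 3.26 to 3.91 in the others. For the flight muscle list the values were 9.05 to 9.08, 8.67 to 8.69 and 7.40 to 7.41 in the same order, against 4.69 to 6.07 in the others. Some adult genes were also raised in w1118, which has neither transgene nor driver. Its higher array reached 9.42 for Nplp3, 7.88 for Arr2, 7.03 for Pdh and 6.51 for Act79B. Its lower array was at 5.81, 4.92, 2.96 and 3.42 for these genes, and Act88F stayed at 3.29 and 4.26 in w1118. In whole larvae, fewer cells of a type and less RNA per cell cannot be told apart. The developmental stage of a pool was not measured apart from these transcripts. A difference in stage, tissue from older animals in a pool, genetic background and the driver cannot be told apart here.

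Glue genes, which mark the late larva, fell. All 6 named genes of the salivary glue list were called lower, with a median of -2.78 and folds between 4.0 and 17.2. Sgs1 had 5.85 and 5.73 in Tub-3L G5 and 9.84 and 9.95 in UAS-3L G5, 17.2-fold lower (SE 0.20 on the log2 scale, adjusted p = 4.63e-09). Sgs8 had 9.37 and 9.26 in Tub-3L G5 and 12.44 and 12.33 in UAS-3L G5 (8.39-fold lower), Sgs3 8.88 and 9.05 in Tub-3L G5 and 11.63 and 11.56 in UAS-3L G5 (6.19-fold lower), and Sgs7 was 4.0-fold lower. These 3 lie together in the genome and are expressed together, and all 6 glue genes stayed above the lower quartile in both groups. The mean log2 signal of the list was 8.33 to 8.39 in Tub-3L G5 and 11.16 to 11.17 in UAS-3L G5, and it was 8.81 to 8.92 in Tub-3L G4 and 3.76 to 3.77 in Tub-3L G5P. The storage proteins of the larval fat body, the other marker list of this stage, are not named by any probe set here.

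The steroid hormone ecdysone triggers moulting and metamorphosis through a cascade of nuclear receptors. Of its 6 named genes 2 were called higher and 2 lower. EcR, the hormone's receptor, had 7.79 and 8.01 in Tub-3L G5 and 9.04 and 9.03 in UAS-3L G5 (2.19-fold lower), and Hr3, an early-late receptor that EcR induces, had 6.27 and 6.34 in Tub-3L G5 and 8.26 and 8.10 in UAS-3L G5 (3.68-fold lower). ftz-f1, a prepupal receptor that Hr3 activates, was 4.15-fold higher, at 8.97 and 9.04 in Tub-3L G5 and 6.78 and 7.13 in UAS-3L G5. Hr38, a receptor active in adult cuticle formation, was 8.90-fold higher, at 7.16 and 7.14 in Tub-3L G5 and 4.0 and 3.99 in UAS-3L G5. These 4 receptors were called, and like every called probe set each separated the groups completely.

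Of 7 named genes of chitin turnover 2 were called lower and 0 higher, with a median of -0.20, and 4 did not pass the adjusted p. Cht10, a chitinase that degrades old cuticle at the moult, had 5.73 and 5.99 in Tub-3L G5 and 9.45 and 9.58 in UAS-3L G5, 12.6-fold lower (adjusted p = 8.26e-10). Of the other large decreases, Pxd, a peroxidase, was 13.0-fold lower (5.82 and 6.07 in Tub-3L G5, 9.68 and 9.61 in UAS-3L G5). Lcp65Ag2, the only named larval cuticle protein, was 7.50-fold lower and Acp1, the only named protein of the pupal and adult cuticle list, 4.42-fold higher, both chosen after their values were seen. The largest decrease was that of CG14664, of unassigned function in the annotation used here, at 5.65 and 5.80 in Tub-3L G5 and 10.17 and 10.22 in UAS-3L G5 (22.2-fold lower). CG8492, CG13722, CG7320, CG43125 and CG13962, known by their identifiers alone, were between 11.0-fold and 14.6-fold lower. mthl8, a receptor of the methuselah-like family, fell by 3.80 on the log2 scale (2.54 and 2.84 in Tub-3L G5, 6.61 and 6.37 in UAS-3L G5) and Est-P, an esterase, 10.8-fold.

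The only named Hox gene, Scr, which specifies the head and first thoracic segment, was 3.53-fold lower and was singled out after its values were seen, with 4.85 and 4.89 in Tub-3L G5 and 6.68 and 6.70 in UAS-3L G5. Of 4 named genes of segment and wing patterning 2 were called lower and 0 higher. bi, a T-box factor of wing and eye development, was 3.88-fold lower (6.09 and 5.98 in Tub-3L G5, 7.89 and 8.10 in UAS-3L G5), and eve, a pair-rule gene, was 2.18-fold lower, with both Tub-3L G5 arrays under the lower quartile. Egfr, the epidermal growth factor receptor, differed by 1.74-fold, under the fold threshold.

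Melanotic tumors consist of blood cells, or hemocytes, and the G5 larvae compared here lacked such tumors. Of 6 named blood cell genes 5 were called lower and 0 higher, with a median of -1.27. He, a surface protein of hemocytes, had 4.42 and 4.53 in Tub-3L G5 and 6.60 and 6.28 in UAS-3L G5, 3.90-fold lower (adjusted p = 3.74e-08). gcm, a factor of glia and plasmatocytes, was 2.77-fold lower (3.25 and 3.13 in Tub-3L G5, 4.51 and 4.81 in UAS-3L G5). For He and gcm both Tub-3L G5 arrays were under the lower quartile, so the size of these folds is uncertain. Pxn, an extracellular matrix peroxidase of hemocytes, was 2.13-fold lower and PPO1, a prophenoloxidase of crystal cells, 2.06-fold, and leaving out 1 array took each of these just under 2-fold. The mean log2 signal of the list was 5.63 to 5.71 in Tub-3L G5 and 6.83 to 6.97 in UAS-3L G5, with 4.75 to 4.82 in Tub-3L G5P. By microscopy of hemolymph, the study reported more hemocytes in G5 Tub-3L larvae both with and without tumors, a measure of cells rather than of transcripts. Of the 4 genes of melanisation, the process that makes the black pigment, 2 were called lower, PPO1 and Ddc, and Sp7, a protease that activates prophenoloxidase, differed by 1.77-fold. Rpn3, which the list holds through an older name, is a subunit of the proteasome.

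Secreted immune peptides rose while the recognition genes were mixed. All 4 named immune-induced peptides were called higher, with a median of 1.58. BomT1, a bomanin induced through the Toll pathway, had 8.56 and 8.46 in Tub-3L G5 and 5.16 and 5.22 in UAS-3L G5 (9.99-fold higher), BomS2, of the same family, was 3.93-fold higher and IM18 2.28-fold. DptB, a diptericin against Gram-negative bacteria, was 2.04-fold higher (8.53 and 8.51 in Tub-3L G5, 7.50 and 7.48 in UAS-3L G5), and it was not called against UAS-3L G1 (log2 difference 0.53). Of 11 genes of immune recognition and signalling 1 was called in each direction. nec, the serpin that restrains Toll activation, was 3.04-fold higher, and GNBP3, which recognises fungal glucans, was 3.54-fold lower (6.72 and 6.48 in Tub-3L G5, 8.38 and 8.47 in UAS-3L G5).

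Of 14 named genes of the respiratory chain 11 were called higher and 0 lower, with a median of 1.36, and the other 3 were higher by less than 2-fold (smallest fold 1.70). Cyt-c1, of complex III, had 10.97 and 11.17 in Tub-3L G5 and 9.42 and 9.31 in UAS-3L G5 (3.26-fold higher, adjusted p = 8.24e-09). ATPsynbeta, the catalytic subunit of the ATP synthase, had 12.80 and 12.74 in Tub-3L G5 and 11.34 and 11.42 in UAS-3L G5 (2.63-fold higher), and ATPsynB and RFeSP were 2.74-fold and 2.64-fold higher. The 14 genes thus moved by similar amounts, unlike those of the adult organs. Of 8 named genes of the citric acid cycle 4 were called higher and 0 lower, including mAcon1, the mitochondrial aconitase (2.61-fold), SdhB, of succinate dehydrogenase (2.38-fold), and Ogdh, of the oxoglutarate dehydrogenase complex (2.37-fold), while 3 did not pass the adjusted p. Against UAS-3L G1, SdhB and Ogdh were not called, at log2 differences of 0.87 and 0.92. The mean log2 signal of the citric acid cycle list was 9.27 to 9.37 in Tub-3L G5 and 8.54 to 8.58 in UAS-3L G5, but 9.19 to 9.21 in w1118. For the respiratory chain list it was 8.56 to 8.66, 7.31 to 7.39 and 8.04 to 8.08 in the same order.

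All 9 named genes of glycolysis passed the adjusted p in the upward direction and 5 were called, with a median of 1.0. Hex-C, a hexokinase, had 8.70 and 8.75 in Tub-3L G5 and 4.38 and 4.25 in UAS-3L G5 (21.3-fold higher), far from the other members. Pfk, the committing kinase of the pathway, was 2.59-fold higher (8.44 and 8.37 in Tub-3L G5, 7.12 and 6.95 in UAS-3L G5) and Pgi, the isomerase before it, 2.27-fold. Hex-A, the hexokinase of most tissues, differed by 1.71-fold. Against UAS-3L G1, Pfk and Pgi were not called, at log2 differences of 0.73 and 0.75. The mean log2 signal of the glycolysis list was 8.60 to 8.65 in Tub-3L G5 and 7.33 to 7.43 in UAS-3L G5. It was 7.76 to 7.79 in UAS-3L G1 and 8.43 to 8.44 in w1118, so larvae without the driver also reached a level near that of Tub-3L G5. Of 9 named genes of lipid metabolism 4 were called higher and 0 lower, with a median of -0.09. eloF, an elongase of the female pheromones, was 46.0-fold higher (8.28 and 8.06 in Tub-3L G5, 2.47 and 2.82 in UAS-3L G5), ACC, which makes malonyl-CoA for fatty acid synthesis, was 5.80-fold higher and Acsl, which activates fatty acids, 2.45-fold. fit, which the list holds, encodes a fat body protein of adult females rather than an enzyme, and it was 22.9-fold higher (8.43 and 8.54 in Tub-3L G5, 3.89 and 4.04 in UAS-3L G5).

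Enzymes of digestion and uptake split. Of 12 named maltases and amylases 4 were called higher and 3 lower. tobi, an alpha-glucosidase that responds to insulin-like peptides, had 9.28 and 9.52 in Tub-3L G5 and 5.94 and 5.57 in UAS-3L G5 (12.6-fold higher), Mal-A7 was 7.49-fold higher, and Mal-A5, from the same gene cluster, was 2.49-fold lower. Of 10 genes of tyrosine breakdown and nutrient uptake 2 were called each way. Faa and hgo, enzymes of tyrosine breakdown, were 5.38-fold and 3.16-fold higher. Against UAS-3L G1, hgo and Ctr1B were not called, at log2 differences of 0.45 and -0.87. Ctr1B, a copper importer of the gut, was 4.08-fold lower (8.65 and 8.79 in Tub-3L G5, 10.81 and 10.68 in UAS-3L G5) and the metallothionein MtnB 2.53-fold lower, with both Tub-3L G5 arrays under the lower quartile.

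Of 4 named heat shock genes 3 were called higher and 0 lower. Hsp70Ab, an inducible chaperone, had 13.13 and 13.33 in Tub-3L G5 and 11.62 and 11.67 in UAS-3L G5 (3.01-fold higher, adjusted p = 3.85e-08, but a log2 difference of 0.69 and no call against UAS-3L G1), and Hsp110, its nucleotide exchange partner, was 2.17-fold higher. Hsp70Aa had 9.23 and 9.39 in Tub-3L G5 and 2.64 and 4.21 in UAS-3L G5, 59.3-fold higher, with UAS-3L G5 arrays that differed by more than most. The Hsp70 copies are nearly identical in sequence, so their signals are not independent, and the transgene of both groups carries an hsp70 promoter. Hsp26, a small heat shock protein, differed by 1.38-fold. Glutathione S-transferases, which conjugate reactive compounds, divided by class. Of 9 named of the epsilon class 7 were called higher and 0 lower, with a median of 1.52, and of 9 of the delta class 0 were called higher and 2 lower, with a median of -0.57. GstE6 had 9.12 and 9.08 in Tub-3L G5 and 6.01 and 6.13 in UAS-3L G5 (8.17-fold higher), GstE9 was 5.11-fold higher and GstE1 3.02-fold.

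Of 42 named cytochrome P450 genes, oxidases of hormones and foreign compounds, 11 were called higher and 5 lower, with a median of 0.33. Cyp313a1 had 8.46 and 8.37 in Tub-3L G5 and 3.0 and 2.61 in UAS-3L G5 (48.9-fold higher) and Cyp6a20 was 8.53-fold higher. Cyp304a1 and Cyp28a5 were 4.79-fold and 3.91-fold lower, but Cyp28a5 was not called against UAS-3L G1 (log2 difference -0.27). Among 15 named UDP-glycosyltransferases and esterases 3 were called higher and 2 lower, among them Ugt35B1, 10.5-fold higher (7.88 and 7.65 in Tub-3L G5, 4.08 and 4.66 in UAS-3L G5), and its neighbour Ugt35A1, 3.37-fold lower (6.77 and 6.87 in Tub-3L G5, 8.55 and 8.60 in UAS-3L G5).

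Of 25 named DNA replication genes 21 passed the adjusted p in the upward direction and 0 in the downward one, against 35.2% upward and 24.2% downward over all named genes, but only 4 reached 2-fold. Orc1, of the origin recognition complex, was 3.67-fold higher (8.05 and 8.07 in Tub-3L G5, 6.33 and 6.04 in UAS-3L G5), RnrL, of ribonucleotide reductase, 2.11-fold and dpa, a subunit of the replicative helicase, 2.04-fold. Rbf, the retinoblastoma protein, differed by 1.69-fold. Of 7 mitosis genes 2 were called higher: APC7, of the anaphase-promoting complex, by 4.17 on the log2 scale (7.84 and 7.79 in Tub-3L G5, 3.43 and 3.87 in UAS-3L G5) and gwl, a kinase of entry into division, 5.06-fold. Of 60 mitochondrial ribosomal proteins 2 were called higher, mRpS35 (2.25-fold) and mRpL1 (2.21-fold), with a median of 0.27. Of 6 proteasome genes none was called, though 5 passed the adjusted p in the downward direction with a median of -0.79, Rpn11, the deubiquitinase of the lid, having 8.84 and 9.0 in Tub-3L G5 and 9.83 and 9.74 in UAS-3L G5.

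Histone genes stayed close together. Of 24 named replication-dependent histone probe sets none was called by limma, with a median of 0.04, and 3 passed the adjusted p upwards and 5 downwards. Their copies are nearly identical, and so the probe sets do not measure separate genes. Of 5 named histone methylation enzymes none was called. Kdm4A, a demethylase of histone H3 at lysines 9 and 36, had 8.29 and 8.23 in Tub-3L G5 and 7.37 and 7.44 in UAS-3L G5, a difference of 1.82-fold. It was called higher against UAS-3L G1, at a log2 difference of 1.38, and against both UAS-3L groups together, at 1.12. Su(var)3-3, the fly LSD1, which demethylates lysine 4, differed by 1.31-fold (7.33 and 7.54 in Tub-3L G5, 7.02 and 7.06 in UAS-3L G5, adjusted p = 0.0296). E(z), the methyltransferase of lysine 27, had 6.80 and 6.98 in Tub-3L G5 and 6.62 and 6.80 in UAS-3L G5, which overlap (adjusted p = 0.178).

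**Figure D3:**
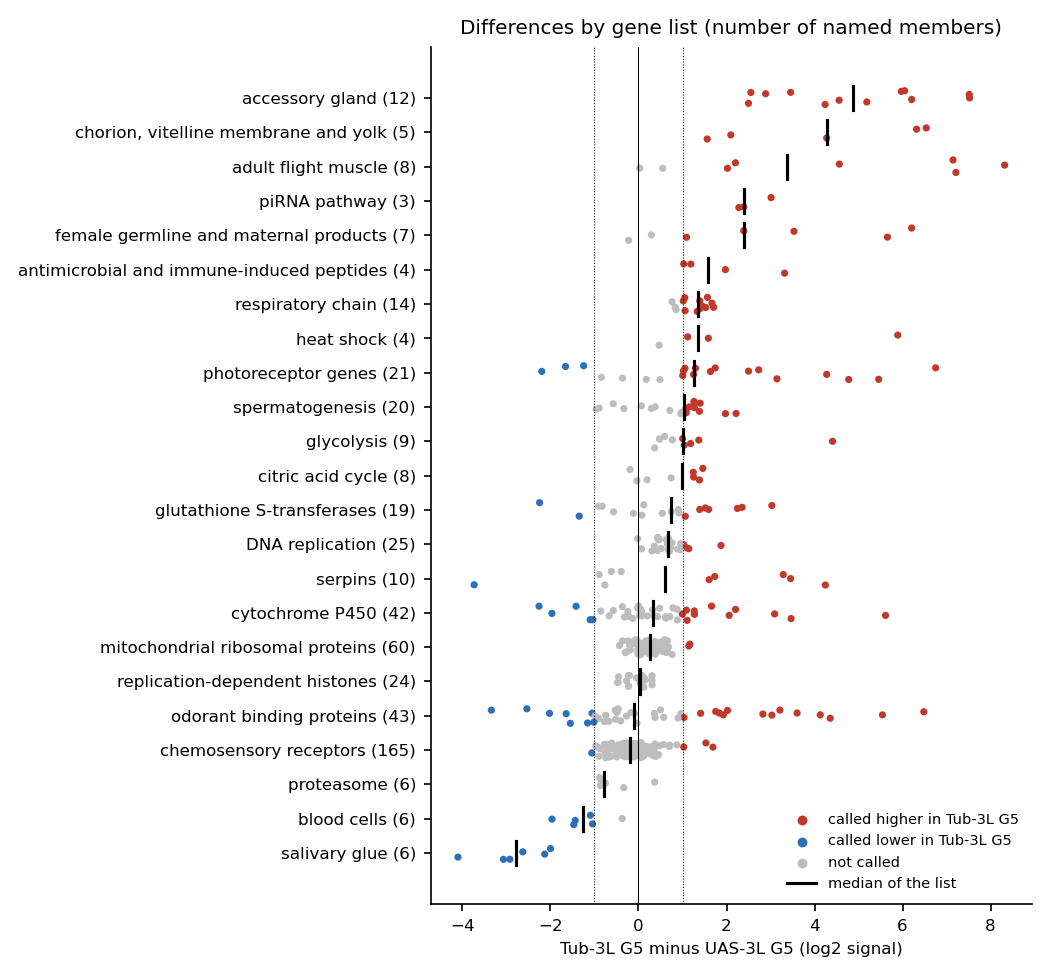
Difference between Tub-3L G5 and UAS-3L G5 in log2 signal (x axis) for the named members of 23 gene lists (rows, with the number of members), 1 point per gene, with the median as a black bar. Lists are ordered by their median, which runs from -2.78 for salivary glue to 4.87 for the accessory gland. Dotted lines mark 2-fold.

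The same contrast in the first generation (G1), Tub-3L G1 against UAS-3L G1, rests on 4 other arrays. It gave 480 called probe sets (2.94%), 200 higher (1.23%) and 280 lower (1.72%), and among named genes 1.56% were called higher and 1.6% lower. Of the 3720 called in G5, 252 were also called in G1, which is 6.77% of the G5 calls and 52.5% of the G1 calls, and of these 141 had the same direction and 111 the opposite one. Over all probe sets the G5 and G1 differences had a Pearson r of 0.0159 and a Spearman rho of 0.042, given as a description since probe sets are not independent. The difference between the contrasts was tested directly as G5 difference minus G1 difference, with the same thresholds, and 3939 probe sets were called (24.1%, and 25.9% of named genes), 1948 with a higher and 1991 with a lower value in G5. They include 2936 of the G5 calls (78.9%). The controls of the generations also differed from each other, though in fewer probe sets. UAS-3L G5 against UAS-3L G1 gave 280 calls (1.72%).

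Among lists of 3 or more named genes, the 4 with the largest medians in G5 had medians near 0 in G1. In G1 the median log2 difference was -0.21 for the accessory gland, -0.11 for the eggshell and yolk, -0.35 for flight muscle, and 0.04 for glue, with 1 flight muscle gene called in G1 and 0 genes of the other 3 lists. Lists with smaller G5 medians varied. Blood cells had a median of 0.13 in G1 and immune-induced peptides, at 1.58 in G5, had 1.13 in G1, while heat shock genes had 1.35 in G5 and -1.99 in G1. For all 12 accessory gland genes and all 6 glue genes the difference between the generations was called as well. Lcp65Ag2 was an exception, with a signal 7.50-fold below its control in G5 and 9.22-fold below it in G1 (5.31 and 4.79 in Tub-3L G5, 7.98 and 7.93 in UAS-3L G5, 4.02 and 4.15 in Tub-3L G1, 7.23 and 7.35 in UAS-3L G1). DptB and BomS2 were likewise higher in both generations, DptB 2.04-fold in G5 and 3.03-fold in G1, and BomS2 3.93-fold in G5 and 2.77-fold in G1.

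**Figure D4:**
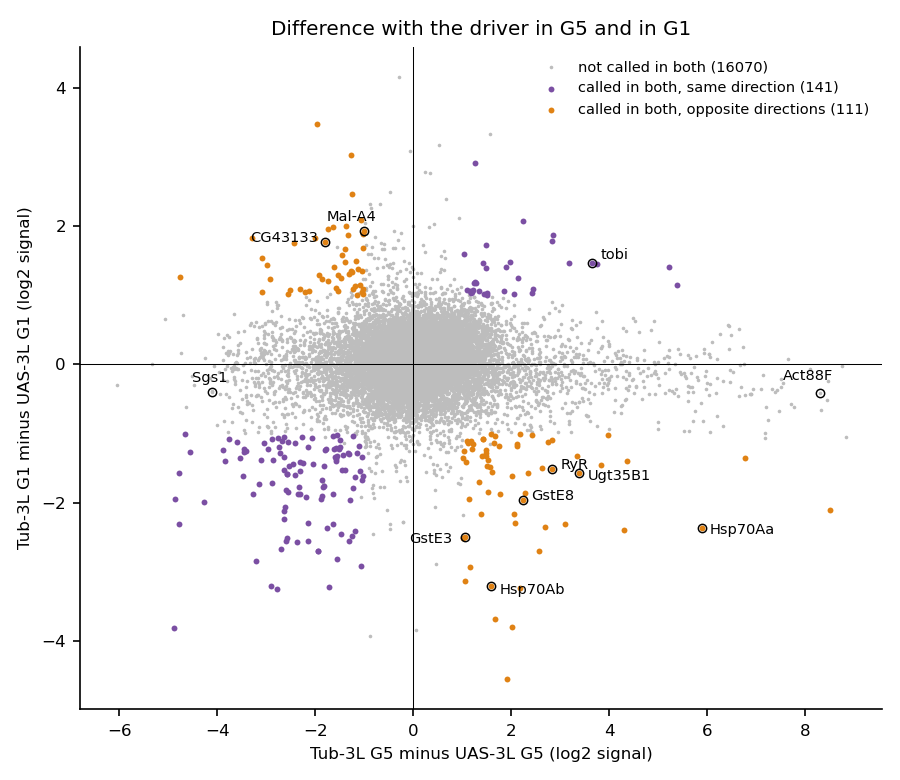
Log2 difference of Tub-3L G5 over UAS-3L G5 (x axis) against that of Tub-3L G1 over UAS-3L G1 (y axis), 1 point per probe set. Coloured points were called in both generations, 141 in the same direction and 111 in opposite directions. Most large G5 differences, such as Act88F and Sgs1, lie close to the zero line of G1.

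Some genes went in opposite directions in the generations. Over all probe sets called in both, 111 of 252 did so and 141 kept the same direction, so reversal was not the more frequent outcome. Of the 28 named genes called in both, 19 had opposite directions, 11 higher in G5 and lower in G1 and 8 lower in G5 and higher in G1, and they are described because of that pattern. They include Hsp70Aa and Hsp70Ab among the 4 heat shock genes, GstE3, GstE7 and GstE8 among the 19 glutathione S-transferases, and Pgi and Pglym78 among the 9 glycolysis genes. Hsp70Ab was 3.01-fold higher in Tub-3L G5 and 9.21-fold lower in Tub-3L G1 than in the UAS-3L control of its generation. Its signals were 13.13 and 13.33 in Tub-3L G5, 11.62 and 11.67 in UAS-3L G5, 9.43 and 9.25 in Tub-3L G1 and 12.56 and 12.52 in UAS-3L G1, so that the order of the groups was reversed. GstE3 was 2.09-fold higher in G5 and 5.63-fold lower in G1, at 10.82 and 11.05 in Tub-3L G5, 9.90 and 9.84 in UAS-3L G5, 7.66 and 7.66 in Tub-3L G1 and 10.19 and 10.11 in UAS-3L G1. GstE7 and GstE8 had the same course (2.62-fold higher and 4.50-fold lower for GstE7, 4.75-fold higher and 3.90-fold lower for GstE8). Of the 9 epsilon class genes 3 were called lower in G1 and 0 higher. Pgi was 2.27-fold higher in G5 and 2.15-fold lower in G1, and the median of the 9 glycolysis genes was -0.63 in G1 against 1.0 in G5.

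Several genes ran the other way. CG43133 was 3.48-fold lower in G5 and 3.41-fold higher in G1, at 4.17 and 4.76 in Tub-3L G5, 6.28 and 6.25 in UAS-3L G5, 8.02 and 7.79 in Tub-3L G1 and 6.08 and 6.19 in UAS-3L G1. Cht4, a chitinase, was 2.03-fold lower in G5 and 3.69-fold higher in G1, and Mal-A4, a maltase, 2.02-fold lower in G5 and 3.79-fold higher in G1. In each of these the UAS-3L arrays of both generations lay between those of Tub-3L G5 and Tub-3L G1, except that 1 UAS-3L G1 array of Mal-A4, at 5.93, was level with Tub-3L G5.

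**Figure D5:**
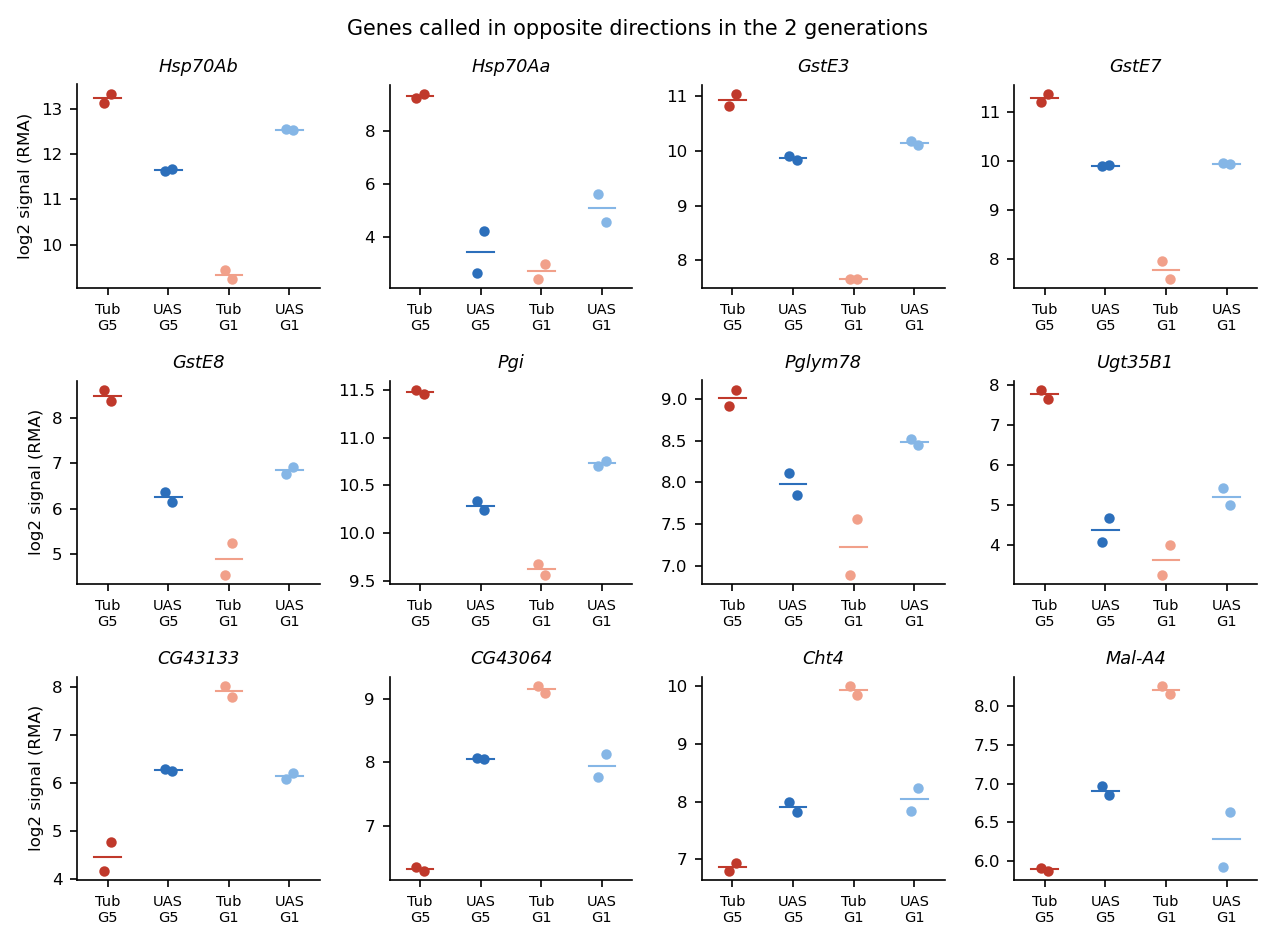
Log2 signal of each array (points) with group means (bars) in Tub-3L G5, UAS-3L G5, Tub-3L G1 and UAS-3L G1 for 12 of the 19 named genes called in opposite directions, each panel with its own y axis. The top 8 genes (Hsp70Ab to Ugt35B1) were higher than their control in G5 and lower in G1, and the bottom 4 lower in G5 and higher in G1.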

How the data were processed

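The authors normalised the arrays with RMA at the gene level in Affymetrix Expression Console 1.3, so the deposited values are log2 signals; comparisons in the study used the Transcriptome Analysis Console. A further deposited table of 9 group averages was not used. RMA forces the arrays to similar distributions, so a shift of all genes cannot be seen. The arrays number 2 per group, which limits the precision.

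In R 4.3.3, limma 3.58.1 (lmFit, eBayes) was fitted with a mean per group to all 18 arrays (9 residual and 2.71 prior degrees of freedom), with Benjamini-Hochberg adjustment over 16322 probe sets in each comparison, at 0.05 and 2-fold. The driver effect in G5 minus that in G1 was a contrast of the same fit. SEs come from the fit. The methods' t-test (unadjusted p at 0.05, 2-fold) was an alternative. The fit was tested on simulated data.

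Symbols (2249, from 2392 probe sets; 13930 have none) come from the platform annotation, matched to the RefSeq table; of 50 symbols with several probe sets the one with the highest mean was taken. Named genes are the 12 largest called increases and decreases, up to 4 members of smallest p from each list, genes the study's text names and the 5 largest generation differences each way; others are marked as chosen afterwards, and the genes called in opposite directions in G1 and G5 are all given. Groups, gene lists and tests were chosen with earlier results of these data known. Labels number the replicates, but same-numbered arrays did not deviate together (r = -0.00877 between Tub-3L G5 and UAS-3L G5). No 2 arrays are alike, as at least 99.94% of probe sets differ.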

Additional observations from a re-analysis of the deposited data

Results flagged for a closer look

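The driver effect differed between the generations in 3939 probe sets by limma (adjusted p under 0.05 and 2-fold), in a test of G5 difference minus G1 difference. All values in this part are such log2 differences of differences. Each generation's contrast uses its own Tub-3L and UAS-3L arrays, so pools, rearing and array handling of a generation cannot be told apart from the generation. The 5 largest in the positive direction were Act88F at 8.73, Nplp3 at 8.39, Ebp at 8.28, Hsp70Aa at 8.26 and Pdh at 8.18. The 5 largest in the negative direction were CG14664 at -4.17, CG13962 at -3.94, Spn43Aa at -3.93, Sgs1 at -3.69 and CG43179 at -3.66.

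The 19 named genes called in opposite directions in the generations were all called here too. Their selection on the same arrays all but fixed this in advance, so it adds no support. Besides Hsp70Aa, those higher in G5 and lower in G1 were Ugt35B1 at 4.97, Hsp70Ab at 4.79, the calcium channel RyR at 4.35, GstE8 at 4.21, GstE7 at 3.56, GstE3 at 3.55, the ubiquitin ligase LUBEL at 3.44, Obp56e at 2.74, the phosphoglycerate mutase Pglym78 at 2.30 and Pgi at 2.29. Those lower in G5 and higher in G1 were CG43133 at -3.57, CG43153 at -3.06, CG43315 at -3.02, Mal-A4 at -2.94, CG43064 at -2.93, Cht4 at -2.91, CG17362 at -2.87 and the adhesion protein Nrt at -2.04.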

How the results depend on the processing

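The count of called probe sets was 3720 and stayed within 1.5 times of that in all and in each direction with the 4 arrays alone (3714), median centring (3754), quantile normalisation (3727), without the dimmest 25% of probe sets (3034), with a variance trend (3733), against UAS-3L G1 (3790) or both UAS-3L groups (3657), by the methods' t-test (3451, or 2724 after Benjamini-Hochberg) and without the arrays of Tub-3L G4 and G5P (3711), the last chosen after seeing the data. Median centring moved the median difference of all probe sets from -0.0228 to -0.141, and calls to 1675 higher and 2079 lower. Quantile normalisation gave 1807 higher and 1920 lower, and leaving out the dimmest 25% of probe sets gave 1509 and 1525. Which direction held more calls therefore depended on the processing. With no fold threshold 9352 were called (4863 higher, 4489 lower), and 7536 for the difference of generations, 3303 for G1 and 2282 for the UAS-3L groups. With only probe sets of 1 gene symbol, which tests fewer, 538 were called (348 higher, 190 lower). Leaving out 1 array gave 3738 to 3784 calls (1969 to 2037 higher, 1701 to 1786 lower), 3884 to 3991 for the difference of generations, 487 to 549 for G1 and 257 to 305 for the UAS-3L groups. With the replicate number as a block 3717 were called, and the block changed the call of no gene named in the text.

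Of the 163 genes examined singly, Prm alone changed sign, at -0.22 on the log2 scale against UAS-3L G1, and it was called in neither setting. Against UAS-3L G1, 21 called genes fell below the thresholds, namely mamo (0.63), DptB (0.53), GstE3 (0.78), Hsp70Ab (0.69), Pgi (0.75), Pfk (0.73), Pglym78 (0.53), SdhB (0.87), Ogdh (0.92), hgo (0.45), Nplp2 (0.65), sNPF (0.68), mRpS35 (0.87), mRpL1 (0.85), kl-5 (0.95), Cyp28a5 (-0.27), Ctr1B (-0.87), ogre (-0.78), eve (-0.47), Mal-A4 (-0.39) and Nrt (-0.49). Against both UAS-3L groups 10 did. Kdm4A (1.38) and Egfr (-1.01) gained a call against UAS-3L G1, Kdm4A (1.12) also against both groups, and Hex-A (1.01) with quantile normalisation. Median centring took 8 under 2-fold (mamo, S-Lap2, DptB, Hsp110, GstE3, RnrL, dpa and Pglym78, at 0.91 to 1.0). Leaving out 1 array took 2 to 7 under it, all in the same direction. Without Tub-3L G5 replicate 1 these were Cht4 (-0.95) and Nrt (-0.82). Without Tub-3L G5 replicate 2 they were Gld (-1.0), PPO1 (-1.0), Mal-A4 (-0.99), GstE3 (0.95), Pglym78 (0.94) and dpa (0.99). Without UAS-3L G5 replicate 1 they were Cht4 (-0.94), Mal-A4 (-0.95), Nrt (-0.98), Pxn (-0.91), eve (-0.89), kl-5 (0.99) and mamo (1.0), and without UAS-3L G5 replicate 2 they were PPO1 (-0.99), Pglym78 (0.91) and dpa (0.94). The limits are the 2 pools per group, the single transgene line and dim signals, where folds are uncertain.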
